A study of Mus musculus with 26 samples.

Results

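Of the 24412 gene symbols measured in mouse oocytes and early embryos, 10 were followed here. They are the transcription factor genes Nr5a2, Tfap2c, Klf4, Klf5, Klf17, Pou5f1, Sox2, Nanog, Tead4 and Esrrb, taken by symbol as factors of pluripotency and of the first lineage choices. All 10 are listed in each of the 3 expression tables. Maternally loaded factors, whose transcripts the oocyte already holds, were contrasted with zygotically induced factors, whose transcript level rises after fertilisation.

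RNA with a polyA tail was sequenced from pools of 12 to 20 C57BL/6J oocytes or embryos, in 26 libraries that form 13 groups of 2. Zp3-Cre; Kdm3a f/f; Kdm3b f/f females, in which the Cre recombinase is made in growing oocytes, gave oocytes without the H3K9 demethylases KDM3A and KDM3B. In vitro fertilisation used sperm from wild-type males, so embryos had intact paternal copies. The maternal double knockout is called mDKO. Without injection, mDKO and control were sampled as metaphase II oocytes (MII) and at the early (E2C) and late (L2C) 2-cell stage. The titles of the L2C libraries say DKO, and their genotype label says maternal DKO. Injected E2C groups were mDKO embryos given Kdm3aWT, mDKO embryos given Kdm3aHA, mDKO embryos given mCherry and control embryos given mCherry. Injected 4-cell groups (4C) were wild-type embryos given Kdm3aWT, Kdm3aHA or mCherry, and mCherry, a fluorescent protein, served as the injected reference. The labels name no meaning for HA and describe the controls only as control. They also do not say if replicate pools came from different matings or days, so p-values measure the spread between pools, which may be technical.

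In the mouse embryo, genome activation starts with a minor wave before and around the early 2-cell stage and a major wave at the late 2-cell stage, while maternal RNA is cleared. Oct4 (encoded by Pou5f1), Sox2 and Nanog form the core of the later pluripotency network. NR5A2 and ESRRB are orphan nuclear receptors that bind related DNA sites. TFAP2C and TEAD4 are needed for trophectoderm, the first outer lineage, and KLF4, KLF5 and KLF17 are zinc-finger factors of 1 family. H3K9 dimethylation is a histone mark found at silent chromatin, which KDM3A and KDM3B remove.

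Library values are TPM, transcripts counted per fixed total, which correct for transcript length and keep no depth, so sequencing depth is unknown. Each library had 7649 to 12396 genes at a TPM of at least 1. Replicates of a group correlated across genes at r = 0.968 to 0.995 on the log2 scale. As a check of the labels, the targeted genes were read first. Kdm3a had 0.725 and 0.718 TPM in mDKO MII oocytes, against 8.08 and 8.83 TPM in control oocytes. Kdm3b had 1.75 and 1.87 TPM in mDKO oocytes, against 26.6 and 24.97 TPM in control oocytes. At L2C, Kdm3a had 28.4 and 26.3 TPM in mDKO embryos and 34.1 and 43.8 TPM in control embryos, at a stage when the wild-type paternal copy can be read. In injected mDKO E2C embryos Kdm3a had 4122 and 2315 TPM with Kdm3aWT, 4043 and 3907 TPM with Kdm3aHA, and 0.262 and 0.411 TPM with mCherry.

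Promoters are shown for a factor of each class, since the classes differ in the stage at which transcripts appear. RefSeq on GRCm38.p6, the assembly that mm10 names, gave 11 promoters for 7 of the 10 factors, each from 250 bases before to 50 after a start site. Tfap2c, Klf5 and Tead4 had no entry. Capitals mark matches, on either strand, to any of 9 motifs. The core promoter motifs were the TATA box, with the letters TATAAA, the CCAAT box, whose letters are its name, and the GC box, with the letters GGGCGG. The factor motifs were CCACCC for KLF proteins, GCCNNNGGC for AP-2 proteins such as TFAP2C, and GGAATG for TEAD proteins. The others were TAATCC for OTX-like proteins such as the OBOX family, the octamer ATTTGCAT for OCT4, and TCAAGGTCA for the NR5A2 and ESRRB receptors. Matches that overlap were each counted. Pou5f1, the most abundant of the maternal factors, lies at chr17:35506032-35510777 (plus strand).
Pou5f1 promoter, chr17:35505782-35506081, plus strand: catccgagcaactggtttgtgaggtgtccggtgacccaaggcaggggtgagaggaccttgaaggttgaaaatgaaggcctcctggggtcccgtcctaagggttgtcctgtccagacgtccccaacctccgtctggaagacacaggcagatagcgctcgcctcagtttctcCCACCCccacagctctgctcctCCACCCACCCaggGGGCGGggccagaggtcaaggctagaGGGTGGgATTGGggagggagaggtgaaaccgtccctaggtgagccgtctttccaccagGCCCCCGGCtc
Nr5a2 has 2 annotated starts, an upstream one and one inside the longer gene (chr1:136842562-136960448, minus strand).
Nr5a2 upstream promoter, chr1:136960399-136960698, minus strand: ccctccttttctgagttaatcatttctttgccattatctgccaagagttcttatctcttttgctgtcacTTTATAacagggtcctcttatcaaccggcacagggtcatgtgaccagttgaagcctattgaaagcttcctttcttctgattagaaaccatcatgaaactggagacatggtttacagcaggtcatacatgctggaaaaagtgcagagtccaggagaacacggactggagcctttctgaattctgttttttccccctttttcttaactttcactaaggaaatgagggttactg
Nr5a2 internal promoter, chr1:136953581-136953880, minus strand: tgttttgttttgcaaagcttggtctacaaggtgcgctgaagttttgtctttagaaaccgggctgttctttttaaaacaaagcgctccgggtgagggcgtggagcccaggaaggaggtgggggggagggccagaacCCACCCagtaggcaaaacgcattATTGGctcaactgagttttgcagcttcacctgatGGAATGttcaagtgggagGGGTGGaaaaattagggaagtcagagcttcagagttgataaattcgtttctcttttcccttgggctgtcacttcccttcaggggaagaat
Klf4 (chr4:55527137-55532475) and Klf17 (chr4:117756659-117765666), both on the minus strand, were each maternally loaded and had higher levels again in the embryo, at different stages.
Klf4 promoter, chr4:55532426-55532725, minus strand: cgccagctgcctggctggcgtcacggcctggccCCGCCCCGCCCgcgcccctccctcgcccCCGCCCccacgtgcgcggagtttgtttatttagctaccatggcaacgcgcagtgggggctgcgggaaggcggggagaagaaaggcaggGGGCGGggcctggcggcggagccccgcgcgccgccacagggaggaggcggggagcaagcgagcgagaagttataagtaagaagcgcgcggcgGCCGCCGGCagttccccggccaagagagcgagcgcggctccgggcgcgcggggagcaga
Klf17 promoter, chr4:117765617-117765916, minus strand: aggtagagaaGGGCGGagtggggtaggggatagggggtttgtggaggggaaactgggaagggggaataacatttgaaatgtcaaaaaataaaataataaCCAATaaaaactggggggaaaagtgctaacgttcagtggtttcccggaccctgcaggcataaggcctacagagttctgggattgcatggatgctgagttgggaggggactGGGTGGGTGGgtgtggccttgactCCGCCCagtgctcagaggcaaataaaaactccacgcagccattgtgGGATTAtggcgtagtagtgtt
Esrrb (chr12:86361117-86521628, plus strand) is shown for the opposite direction of its mDKO differences at E2C, where it was not called, and L2C.
Esrrb promoter, chr12:86360867-86361166, plus strand: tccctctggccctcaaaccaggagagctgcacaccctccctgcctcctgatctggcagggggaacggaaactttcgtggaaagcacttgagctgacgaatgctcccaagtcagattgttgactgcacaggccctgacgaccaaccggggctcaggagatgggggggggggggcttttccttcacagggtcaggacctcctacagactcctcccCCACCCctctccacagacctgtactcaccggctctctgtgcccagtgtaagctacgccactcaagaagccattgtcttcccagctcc
Nanog (chr6:122707489-122714633, plus strand) stands for the zygotic factors.
Nanog promoter, chr6:122707239-122707538, plus strand: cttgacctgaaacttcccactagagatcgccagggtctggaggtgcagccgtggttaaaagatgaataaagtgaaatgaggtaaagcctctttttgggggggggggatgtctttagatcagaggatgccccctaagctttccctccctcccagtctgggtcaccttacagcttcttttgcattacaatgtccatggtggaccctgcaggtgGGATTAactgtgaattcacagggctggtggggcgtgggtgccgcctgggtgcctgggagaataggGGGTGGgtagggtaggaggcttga

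Among the 7 promoters shown, base composition differed widely. The Klf4 promoter was 74.3% G or C with 40 CpG pairs, and the upstream Nr5a2 promoter 42% with 2, where the 10th to 90th percentiles of all 32851 promoters were 39.7% to 69.7% and 1 to 31 pairs. Klf4 held 4 GC boxes, Klf17 2 and the first Pou5f1 promoter 1, a motif present in 35.7% of all promoters. The KLF motif (31.5% of all promoters) occurred 4 times in the first Pou5f1 promoter, 2 times in that of Klf17, 2 times in the internal one of Nr5a2, and once each in those of Esrrb and Nanog. The TEAD motif (14.7%) stood in the internal Nr5a2 promoter, and the AP-2 motif (16.6%) in those of Klf4 and Pou5f1. The OTX-like motif (7.06%) stood in the Klf17 and Nanog promoters, and also in the second promoters of Nanog and Pou5f1, which are not shown. CCAAT boxes (37.4%) stood in the promoters of Klf17 and Pou5f1 and in the internal one of Nr5a2, and the upstream Nr5a2 promoter held the TATA box match (13.6%). Of the promoters not shown, that of Sox2 and the second ones of Pou5f1 and Esrrb held a CCAAT box. The second Nanog promoter held an AP-2 match, the second ones of Nanog and Esrrb a KLF match, and Sox2 2 GC boxes. Neither the octamer (1.74%) nor the receptor motif (0.423%) was found in the 11 windows. A match describes these letters and not a bound site.

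The other factors lie at chr2:172545678-172558622 (Tfap2c, plus strand), chr14:99298691-99313412 (Klf5, plus), chr3:34649995-34652461 (Sox2, plus) and chr6:128227143-128300813 (Tead4, minus). Pou5f1 overlaps an annotated antisense gene, Gm19553. Klf17 shares a stretch of 327 bases at 99.1% identity with the pseudogene Gm20690, and Nanog 245 bases at 97.6% with Nanog-ps1. None of these partners is listed in the tables, so reads from them could count towards the factor.

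In control samples the 10 factors followed 3 courses. A factor was called maternally loaded at a mean of at least 1 TPM over the 4 MII libraries, and induced when it was called higher from one stage to the next by at least 1 on the log2 scale. Induced thus stands for a higher TPM, and new transcription was not tested. Tfap2c, Pou5f1 and Sox2 were maternally loaded and not induced (3 factors). Nr5a2, Klf4, Klf17 and Esrrb were loaded and induced (4 factors), and Klf5, Nanog and Tead4 were induced only (3 factors). Calls throughout are from limma on log2(TPM + 1), with Benjamini-Hochberg adjusted p under 0.05 over all genes tested, and values after ± are standard errors.

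**Figure D1:**
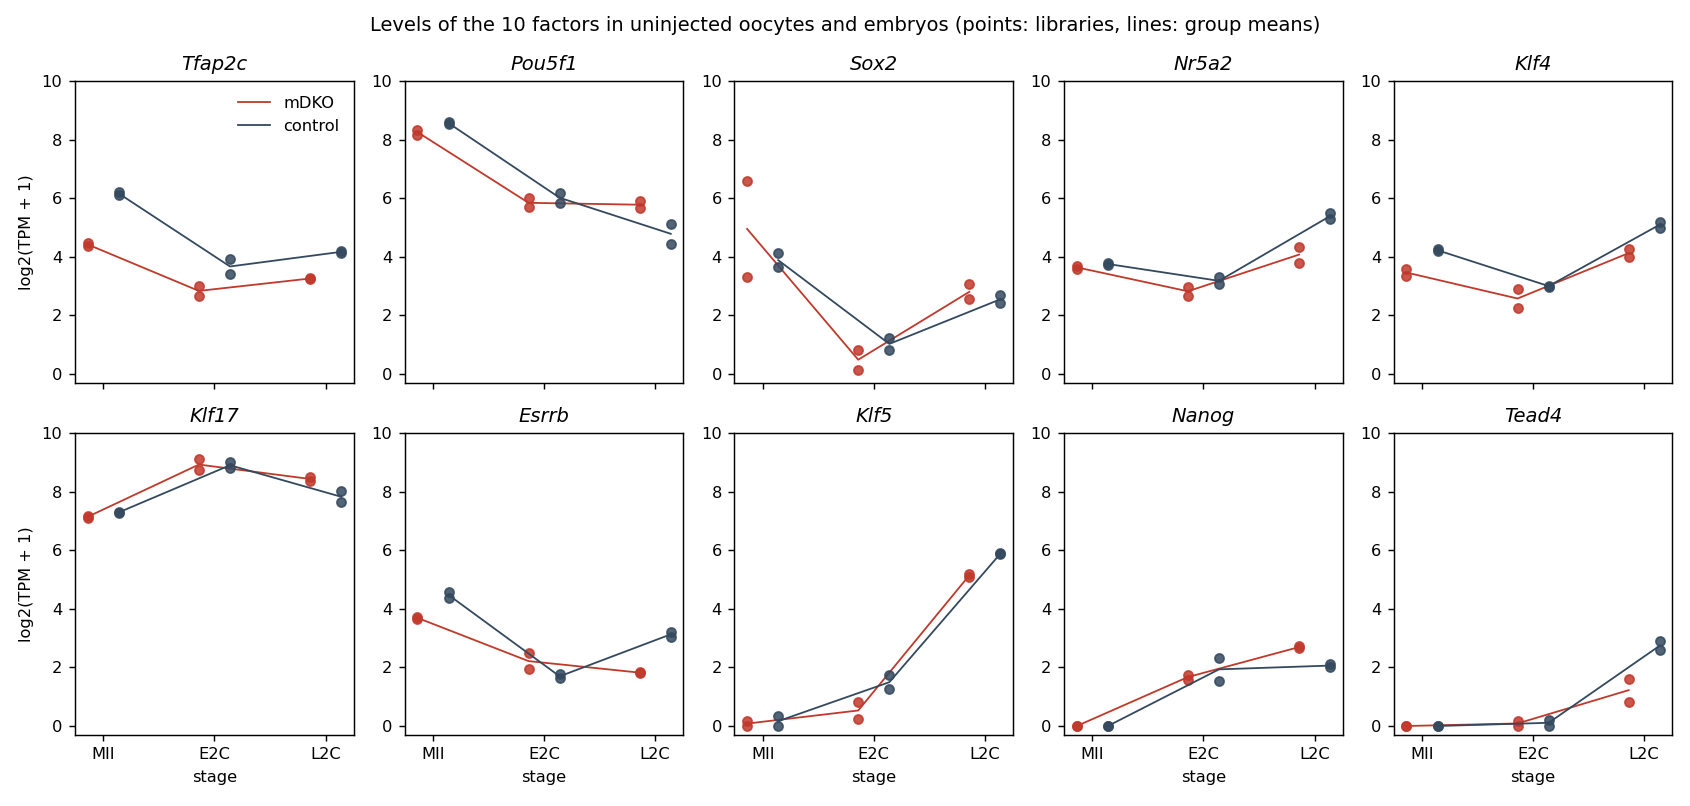
Level of each factor, as log2(TPM + 1), at MII, E2C and L2C in uninjected samples, with mDKO libraries in red left of control libraries in dark blue, points for libraries and lines through the means of 2. Klf5, Nanog and Tead4 sit at or near 0 at MII, while Pou5f1 and Klf17 sit highest, and the single high red point of Sox2 at MII is mDKO replicate 2.

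Among the maternal factors Pou5f1 was the most abundant, and its transcript was largely gone by E2C. Control libraries had 389 and 366 TPM at MII, 72.0 and 56.3 TPM at E2C, and 20.6 and 34.1 TPM at L2C. The successive changes were -2.55 ± 0.22 (adjusted p = 9.24e-07) and -1.23 ± 0.22 (adjusted p = 0.000446). Tfap2c had 73.0 and 67.9 TPM at MII, 14.2 and 9.65 TPM at E2C, and 16.6 and 17.4 TPM at L2C. Its loss by E2C was -2.49 ± 0.19 (adjusted p = 4.19e-07). The gain to L2C, 0.50 ± 0.19 (adjusted p = 0.0412), passed the test but was under the size set for induction, and it lost its call when 9 of the 12 uninjected libraries were left out in turn. Sox2 had 11.6 and 16.4 TPM in control oocytes and 1.34 and 0.774 TPM at E2C, a fall of 2.86 on the log2 scale (SE 0.76, adjusted p = 0.00541). At L2C it had 5.42 and 4.35 TPM. The difference from E2C, 1.52 ± 0.76, was not called (adjusted p = 0.0997). It was called when mDKO MII replicate 1 or 2, at 8.93 and 95.3 TPM, was left out of the joint fit (adjusted p = 0.00131 and 0.00138), and in a fit of the 4 control libraries alone (adjusted p = 0.00110). With those calls Sox2 would count as loaded and induced.

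The 4 factors that were both loaded and induced differed in timing. Of these, Klf17 was called higher at E2C and lower at L2C. Its control libraries had 154 and 158 TPM at MII, 515 and 442 TPM at E2C, and 199 and 256 TPM at L2C. Its changes were 1.61 ± 0.16 (adjusted p = 2.48e-06) and -1.08 ± 0.16 (adjusted p = 9.26e-05). Nr5a2, Klf4 and Esrrb instead dipped at E2C and rose at L2C. Nr5a2 had 12.9 and 12.1 TPM at MII, 8.81 and 7.36 TPM at E2C, and 43.95 and 38.1 TPM at L2C, a gain of 2.21 ± 0.21 over E2C (adjusted p = 3.29e-06). Its dip, -0.58 ± 0.21 (adjusted p = 0.0284), was -0.32 with size-factor scaling and then was not called (adjusted p = 0.192). Klf4 had 17.2 and 18.2 TPM at MII, 7.10 and 6.90 TPM at E2C, and 30.9 and 35.7 TPM at L2C, with changes of -1.22 ± 0.22 (adjusted p = 0.000385) and 2.10 ± 0.22 (adjusted p = 7.38e-06). Esrrb had 19.7 and 22.8 TPM at MII, 2.39 and 2.09 TPM at E2C, and 7.29 and 8.23 TPM at L2C, with changes of -2.78 ± 0.21 (adjusted p = 3.18e-07) and 1.43 ± 0.21 (adjusted p = 0.000105). At L2C both control libraries of Esrrb lay below both of its control oocyte libraries, and those of Nr5a2 and Klf4 lay above theirs.

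The zygotic factors were at or near 0 in oocytes. Nanog was listed at 0 in all 4 MII libraries, and control embryos had 3.97 and 1.93 TPM at E2C and 3.32 and 3.04 TPM at L2C. Its gain by E2C was 1.93 ± 0.24 (adjusted p = 2.08e-05), and the step to L2C was 0.13 ± 0.24 (adjusted p = 0.659). Klf5 was the most strongly induced: 0.258 and 0 TPM in control oocytes, 1.38 and 2.34 TPM at E2C, and 59.4 and 56.9 TPM at L2C. Its changes were 1.33 ± 0.25 (adjusted p = 0.000494) and 4.39 ± 0.25 (adjusted p = 6.14e-08). Tead4 was listed at 0 in all MII libraries, had 0.163 and 0 TPM at E2C and 5.05 and 6.41 TPM at L2C, a gain of 2.63 ± 0.25 (adjusted p = 3.29e-06). These 3 factors passed the filter on low values only through the later stages. In mCherry-injected control E2C embryos Nanog had 0.224 and 0 TPM, and Klf5 had 0 and 0.415 TPM. The induced class of Nanog therefore rests on the uninjected E2C libraries, and its E2C level did not repeat in the injected ones.

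From MII to E2C in controls, 3 factors were called higher and 6 lower, where 72.1% of all genes were called, 35.1% higher and 37.0% lower. From E2C to L2C, 6 were called higher and 2 lower, with 65.6% of all genes called, 35.5% higher and 30.1% lower. The labels name a TruSeq Stranded mRNA kit for MII oocytes, SMART-Seq kits for E2C and 4C, and none for L2C, so stage and kit cannot be told apart. Size-factor scaling moved the median of all genes by 0.22 and 0.15 on the log2 scale in these comparisons, and apart from the Nr5a2 dip it changed no call of a factor.

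A difference between mDKO and control was already called in the oocyte for 1 factor. Tfap2c had 19.6 and 21.3 TPM in mDKO MII oocytes and 73.0 and 67.9 TPM in control oocytes, so that mDKO oocytes held 29.0% of the control level. It fell by 1.74 on the log2 scale (SE 0.12, adjusted p = 0.00515), and it was called in every alternative run. Of the 7 factors tested at MII, it was the only one called, where 4.25% of all genes were called and 3.41% were called lower. Klf5, Nanog and Tead4 were too low to test. In pooled samples, fewer cells carrying a transcript and less of it per cell cannot be told apart.

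Of the other loaded factors, Klf4, Esrrb, Pou5f1, Klf17 and Nr5a2 had both mDKO libraries below both control libraries but missed the threshold. With Tfap2c these were 6 of the 7 tested factors, and 34.4% of all tested genes were ordered that way at MII. Klf4 had 9.05 and 11.1 TPM in mDKO oocytes and 17.2 and 18.2 TPM in control oocytes, a difference of -0.76 ± 0.17 (adjusted p = 0.0740). Esrrb had 11.7 and 12.2 TPM in mDKO oocytes and 19.7 and 22.8 TPM in control oocytes, a difference of -0.78 ± 0.16 (adjusted p = 0.0573). Pou5f1 had 288 and 323 TPM in mDKO oocytes and 389 and 366 TPM in control oocytes (-0.31 ± 0.09, adjusted p = 0.118). Klf17 differed by -0.15 ± 0.08 (adjusted p = 0.318) and Nr5a2 by -0.11 ± 0.16 (adjusted p = 0.712). Sox2 differed within the mDKO group: 8.93 and 95.3 TPM in mDKO oocytes, against 11.6 and 16.4 TPM in control oocytes. Its difference was 1.07 ± 1.01 (adjusted p = 0.574). It was 2.7 without mDKO replicate 1 (adjusted p = 0.0319) and -0.57 without mDKO replicate 2 (adjusted p = 0.388), so 1 library decides its direction. In that library 7 genes stood at least at 10 TPM and 3 times above each of the other 3 MII libraries, against 4, 1 and 1 genes in the others.

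**Figure D2:**
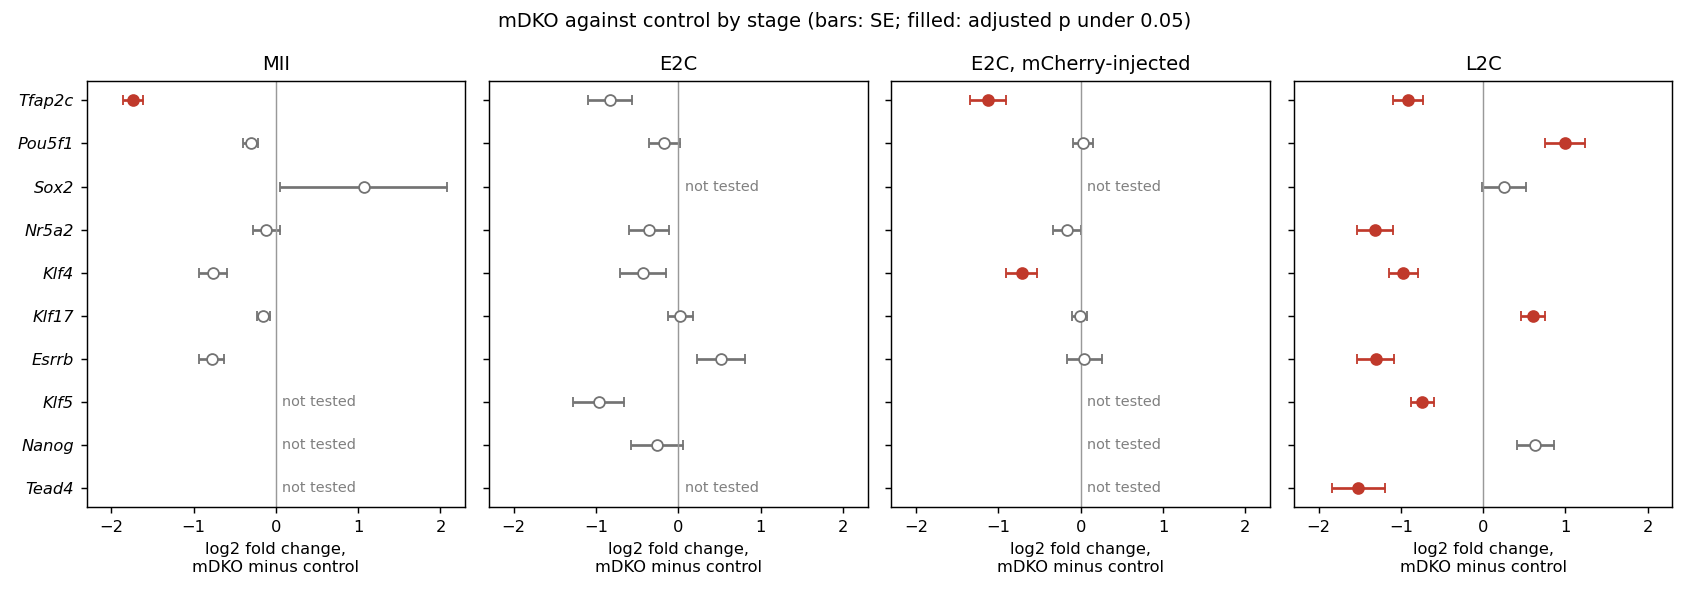
Log2 fold change of each factor, mDKO minus control, at MII, at E2C without injection, at E2C with mCherry injection and at L2C, with standard errors and filled points where the adjusted p is under 0.05. Tfap2c lies below 0 in all panels, and at L2C 6 factors are filled below 0 while Pou5f1 and Klf17 are filled above it.

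At E2C none of the 8 factors tested was called, where limma called 14.4% of all genes, 5.38% higher and 8.99% lower, and 2 factors had an unadjusted p under 0.05. These were Tfap2c and Klf5. Tfap2c had 7.003 and 5.37 TPM in mDKO embryos and 14.2 and 9.65 TPM in control embryos (-0.83 ± 0.27, adjusted p = 0.0733). Klf5 had 0.190 and 0.752 TPM in mDKO embryos and 1.38 and 2.34 TPM in control embryos (-0.97 ± 0.31, adjusted p = 0.0751). Both were called in the joint fit of the 12 uninjected libraries, with adjusted p = 0.0175 for Tfap2c and 0.0264 for Klf5, and Klf5 passed the filter only through the control libraries. For Tfap2c, Klf5, Nr5a2 and Klf4 both mDKO libraries lay below both control libraries, as for 31.3% of all tested genes. Esrrb leaned the other way at E2C, with 4.62 and 2.84 TPM in mDKO embryos and 2.39 and 2.09 TPM in control embryos (0.52 ± 0.29, adjusted p = 0.273).

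The abundant factors Klf17 and Pou5f1, and the less abundant Nanog, did not separate by genotype at E2C. Klf17 had 552 and 426 TPM in mDKO embryos and 515 and 442 TPM in control embryos (0.02 ± 0.15, adjusted p = 0.944). Pou5f1 had 50.8 and 62.6 TPM in mDKO embryos and 72.0 and 56.3 TPM in control embryos (-0.17 ± 0.19, adjusted p = 0.596). Nanog had 2.00 and 2.37 TPM in mDKO embryos and 3.97 and 1.93 TPM in control embryos (-0.26 ± 0.32, adjusted p = 0.628). The groups overlapped for all 3. Leaving out control replicate 1 turned the sign of Pou5f1 and Nanog, and leaving out control replicate 2 or mDKO replicate 1 that of Klf17. Nr5a2 differed by -0.36 ± 0.25 (adjusted p = 0.391) and Klf4 by -0.42 ± 0.28 (adjusted p = 0.364). Sox2 and Tead4 were too low to test, with at most 1.34 and 0.163 TPM in any E2C library.

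At L2C, 6 of the 10 factors were called lower in mDKO than in control embryos, 2 were called higher and 2 were not called. For L2C, fell and rose stand below for this difference between genotypes, and not for a course over time. Among all genes 42.4% were called, 23.3% lower and 19.1% higher. Leaving out any of the 4 libraries kept 8 factors called. The 6 that fell were Tead4, Nr5a2, Esrrb, Klf4, Tfap2c and Klf5. For these 6, both mDKO libraries lay below both control libraries, as for 37.6% of all tested genes. The median difference over the 10 factors was -0.82, beside -0.00066 over all genes. Within mDKO embryos, mean Klf5 went from 0.471 TPM at E2C to 34.4 TPM at L2C, Klf4 from 5.10 to 16.6 TPM and Nr5a2 from 6.12 to 16.2 TPM. Tfap2c went from 6.19 to 8.57 TPM and Tead4 from 0.0635 to 1.42 TPM, while Esrrb went from 3.73 to 2.54 TPM. Klf17 went from 489 to 345 TPM, and Pou5f1 from 56.7 to 54.1 TPM with overlapping libraries. The stage comparisons of the controls and the mDKO comparisons share the control libraries, so a factor's induction at L2C and its mDKO difference there are not independent.

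Of the factors that fell, Tead4 had the lowest share of its control level. However, it passed the filter on low values only through the control libraries. It had 2.06 and 0.782 TPM in mDKO embryos and 5.05 and 6.41 TPM in control embryos (-1.52 ± 0.32, adjusted p = 0.00898), and 1.42 TPM was 24.8% of the control mean. Tead4 encodes the partner of the Hippo pathway coactivators YAP1 and TAZ. Nr5a2 had 19.4 and 12.9 TPM in mDKO embryos and 43.95 and 38.1 TPM in control embryos (-1.32 ± 0.22, adjusted p = 0.00310), 39.4% of the control mean. Esrrb had 2.49 and 2.58 TPM in mDKO embryos and 7.29 and 8.23 TPM in control embryos (-1.31 ± 0.22, adjusted p = 0.00386), 32.7% of the control mean. Klf4 had 14.8 and 18.3 TPM in mDKO embryos and 30.9 and 35.7 TPM in control embryos (-0.97 ± 0.18, adjusted p = 0.00514). In all of these each mDKO library lay below both control libraries. Klf5 had 35.9 and 33.0 TPM in mDKO embryos and 59.4 and 56.9 TPM in control embryos (-0.74 ± 0.14, adjusted p = 0.00525). The Klf5 mean at L2C was 59.2% of control, and its mDKO difference did not pass the test of a change from E2C (0.23 ± 0.35, adjusted p = 0.689).

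Tfap2c, which was not induced at L2C, had 8.71 and 8.43 TPM in mDKO embryos and 16.6 and 17.4 TPM in control embryos (-0.91 ± 0.18, adjusted p = 0.00666). Tfap2c, Nr5a2 and Klf4 were the factors with both mDKO libraries below both control libraries at MII, E2C and L2C and also in mCherry-injected E2C embryos. They were 3 of the 6 factors tested in all of these, where 3.72% of 8792 genes were so ordered. Nr5a2 was called at L2C only.

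The 2 factors that rose were Pou5f1 and Klf17. Pou5f1 had 49.3 and 58.8 TPM in mDKO embryos and 20.6 and 34.1 TPM in control embryos (0.99 ± 0.24, adjusted p = 0.0148). Its adjusted p was 0.0536 without the filter on low values, where more genes are tested. Klf17 had 359 and 331 TPM in mDKO embryos and 199 and 256 TPM in control embryos (0.61 ± 0.14, adjusted p = 0.0137). Nanog had 5.61 and 5.34 TPM in mDKO embryos and 3.32 and 3.04 TPM in control embryos, and its difference of 0.63 ± 0.23 missed the threshold (adjusted p = 0.0589) but passed it with size-factor scaling (adjusted p = 0.0460). Sox2 had 4.84 and 7.37 TPM in mDKO embryos and 5.42 and 4.35 TPM in control embryos (0.25 ± 0.26, adjusted p = 0.472), and these groups overlapped.

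No class moved 1 way at L2C. Among the zygotic factors Klf5 and Tead4 fell, and Nanog was not called. Among the maternal factors Tfap2c fell, Pou5f1 rose and Sox2 was not called. Of those both loaded and induced, Nr5a2, Klf4 and Esrrb fell and Klf17 rose.

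The stage dependence was tested directly as the mDKO difference at one stage minus that at the stage before, in 1 fit of the 12 uninjected libraries. Between E2C and L2C, 3 factors had a lower difference and 1 a higher, where 25.7% of all genes were called, 12.5% lower and 13.2% higher. The values were -1.83 ± 0.30 for Esrrb (adjusted p = 0.00159), -1.50 ± 0.35 for Tead4 (adjusted p = 0.0110), -0.96 ± 0.30 for Nr5a2 (adjusted p = 0.0361) and 1.17 ± 0.31 for Pou5f1 (adjusted p = 0.0189). Tead4 had at most 0.163 TPM in any uninjected E2C library of either genotype, too low to test there. Its value thus repeats its L2C difference of -1.52 and cannot show a change with stage. The call for Nr5a2 was lost without 6 of the 12 libraries in turn and that for Pou5f1 without 4, while those for Esrrb and Tead4 held without each. With a pseudocount of 0.1 the calls for Tead4 (adjusted p = 0.173) and Nr5a2 (adjusted p = 0.0637) were lost, and without the filter on low values that for Nr5a2 (adjusted p = 0.0519). The mean Esrrb level at L2C was 68.0% of that at E2C in mDKO embryos and 346% of it in control embryos. For Tfap2c the value was -0.08 ± 0.28 and was not called (adjusted p = 0.874). Between MII and E2C 1 factor was called, Esrrb at 1.3 ± 0.30 (adjusted p = 0.0370), where 3.88% of all genes were called, 1.72% higher and 2.16% lower. That call was lost without 10 of the 12 libraries in turn.

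Lists of related genes were read at L2C against the shares of all genes, 19.1% called higher and 23.3% lower. Of the pluripotency network genes, 26 of 33 were tested, 4 rose and 10 fell, with a median difference of -0.0032. Prdm14, a zinc-finger regulator of naive pluripotency and germ cells, fell by 2.50 on the log2 scale (1.25 TPM in mDKO and 11.6 TPM in control embryos). Dppa5a, which encodes an RNA-binding protein of pluripotent cells, fell by 2.18 (654 TPM in mDKO and 2946 TPM in control embryos). Stat3 (1.08 ± 0.30) and Gbx2 (0.97 ± 0.16) rose, the first a signal transducer of the LIF pathway and the second a homeobox gene. Of 14 Hippo pathway genes, which control the TEAD4 coactivators, 10 were tested, 1 rose and 5 fell (median -0.62). Stk4 (-1.26 ± 0.21) and Mob1a (-1.22 ± 0.15) fell, while Stk3, the paralogous Hippo kinase, rose (1.11 ± 0.15).

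Among the 43 paralogues of the factors, 24 were tested at L2C, 6 rose and 4 fell (median 0.10), and 42.4% of all genes were called. Klf2 (-1.59 ± 0.20) and Klf9 (-0.79 ± 0.22) fell, and Tfap2e (1.08 ± 0.14) and Klf7 (0.86 ± 0.25) rose. The trophectoderm list had 1 of 10 tested genes higher, Dppa1 (1.39 ± 0.21), and 2 lower, among them Id2 (-0.64 ± 0.14), with a median of 0.12. The primitive endoderm list had 2 of 5 higher, Dab2 (1.34 ± 0.18) and Lamb1 (0.85 ± 0.21), and 1 lower, Gata4 (-0.59 ± 0.19), with a median of 0.56.

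At MII, where 3.41% of all genes were called lower and 0.845% higher, the paralogues had 4 of 23 lower, led by Sox8 (-3.93 ± 0.25) and Tead2 (-1.77 ± 0.30), and the network genes 1 of 18 higher, Dnmt3l (1.11 ± 0.19). None of 13 Hippo, 6 trophectoderm and 8 primitive endoderm genes was called by limma, and 4, 0 and 0 had an unadjusted p under 0.05. At E2C, where 8.99% of all genes were called lower, 4 of 18 paralogues, 1 of 18 network genes (Dppa5a, -0.57 ± 0.14) and 2 of 7 trophectoderm genes (Id2, -0.71 ± 0.17) were lower, and none of 9 Hippo and 5 primitive endoderm genes was called by limma, with 3 and 1 at an unadjusted p under 0.05.

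Markers of the oocyte and of the early 2-cell embryo moved with genotype at L2C. The 10 oocyte markers summed to 8026 and 8247 TPM in mDKO embryos and to 3434 and 3108 TPM in control embryos, with 7 of 10 called higher and 1 lower. The 9 early 2-cell markers summed to 2391 and 1914 TPM in mDKO embryos and 807 and 614 TPM in control embryos at L2C, with 6 called higher. At E2C they summed to 180 and 226 TPM in mDKO embryos and 1118 and 1627 TPM in control embryos, with 7 of 8 tested called lower. None of these markers was at 0 in both libraries of any L2C group. The 10 cumulus and granulosa cell markers summed to 85.1 and 82.7 TPM in mDKO embryos and 28.6 and 34.4 TPM in control embryos at L2C, with Fshr, Amh, Inha, Ptx3 and Cyp11a1 at 0 in both control libraries and Ptx3 in both mDKO libraries. The 7 sperm markers summed to 15.6 and 15.1 TPM in mDKO embryos and 17.1 and 25.2 TPM in control embryos, with Akap4 at 0 throughout. The 7 blood markers summed to 67.4 and 291 TPM in mDKO embryos and 308 and 360 TPM in control embryos, with Hbb-bs at 0 throughout. The part of these markers in the factor differences was not tested.

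The injected E2C embryos repeated the mDKO comparison with separate libraries. Tfap2c had 3.56 and 3.05 TPM in mDKO mCherry embryos and 9.57 and 7.31 TPM in control mCherry embryos, a fall of 1.13 on the log2 scale (SE 0.21, adjusted p = 0.00301). Klf4 had 1.29 and 1.52 TPM in mDKO mCherry embryos and 2.81 and 3.09 TPM in control mCherry embryos, a fall of 0.72 (SE 0.19, adjusted p = 0.0140). Of 6 factors tested these 2 were called, both lower, where 46.9% of all genes were called, 20.0% lower and 26.9% higher. The Klf4 call was lost without control replicate 2 and without either mDKO replicate (adjusted p = 0.0716, 0.101 and 0.0548), while that of Tfap2c held without each of the 8 libraries. Cumulus and granulosa markers summed to 343 and 333 TPM in mDKO mCherry embryos and 82.5 and 73.9 TPM in control mCherry embryos, and oocyte markers to 11719 and 11565 TPM in mDKO and 7603 and 8033 TPM in control mCherry embryos. The 9 early 2-cell markers, all called lower, summed to 236 and 266 TPM in mDKO and 1195 and 1465 TPM in control mCherry embryos. The part of these markers in the result was not tested.

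The other tested factors were not called in mCherry-injected embryos. With Tfap2c and Klf4, Nr5a2 had both mDKO libraries below both control libraries, as had 36.5% of all tested genes. Nr5a2 had 7.47 and 5.95 TPM in mDKO and 7.63 and 7.61 TPM in control mCherry embryos (-0.17 ± 0.17, adjusted p = 0.451). Klf17 had 406 and 438 TPM in mDKO and 414 and 438 TPM in control mCherry embryos (-0.01 ± 0.09, adjusted p = 0.922). Pou5f1 had 94.6 and 104.5 TPM in mDKO and 86.8 and 109.8 TPM in control mCherry embryos (0.03 ± 0.12, adjusted p = 0.876). Esrrb had 1.86 and 1.46 TPM in mDKO and 1.895 and 1.29 TPM in control mCherry embryos (0.04 ± 0.21, adjusted p = 0.883). Klf5, Nanog, Tead4 and Sox2 were too low to test in this table. Nanog reached at most 0.224 TPM here, where uninjected E2C libraries of the other table had 1.93 to 3.97 TPM. Sox2 had 0 and 0.0566 TPM in mDKO mCherry embryos and 0.592 and 0.627 TPM in control mCherry embryos.

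**Figure D3:**
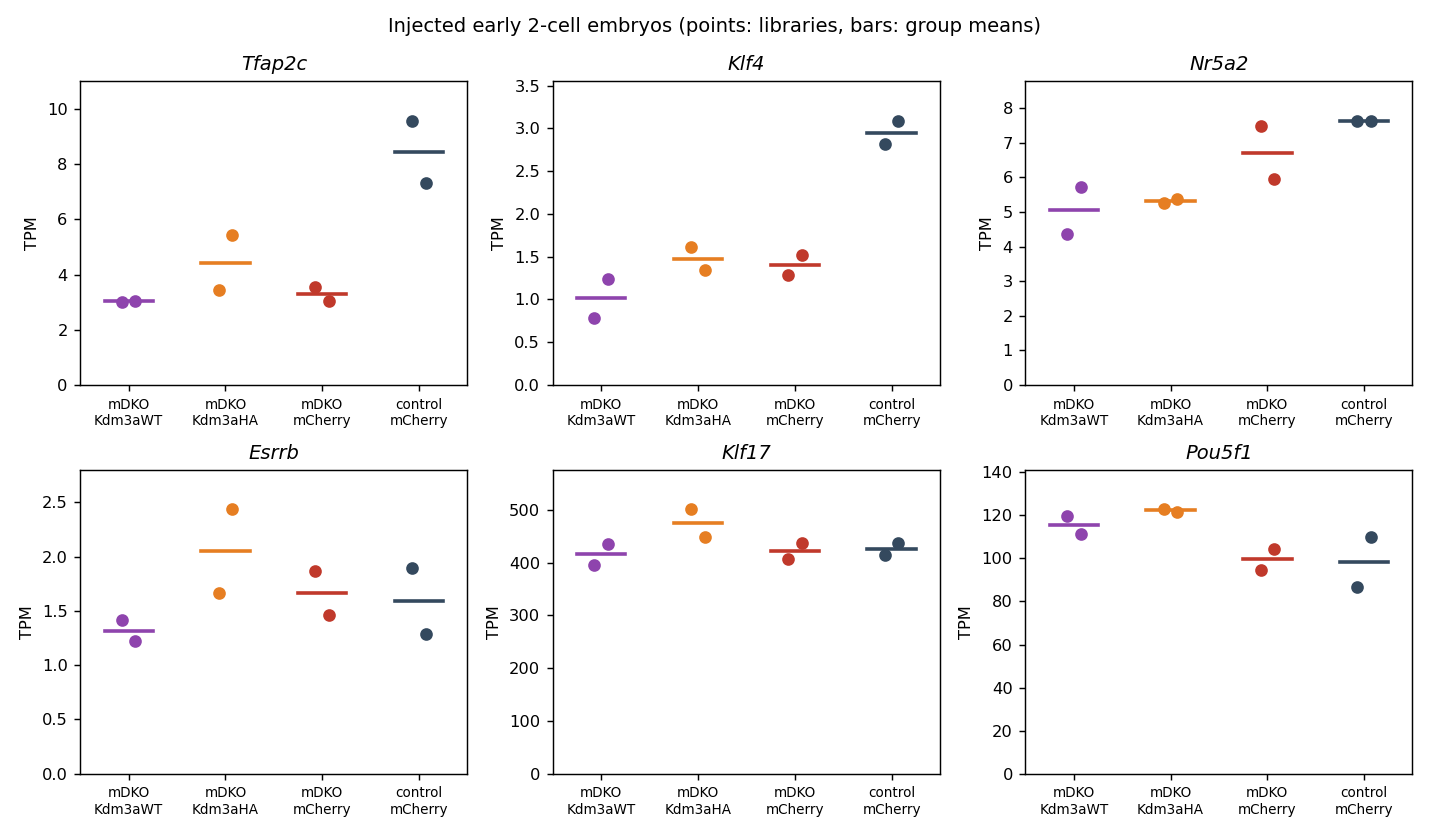
TPM of the 6 testable factors in injected early 2-cell embryos, with points for libraries and short lines for the means of 2, in the order mDKO with Kdm3aWT, mDKO with Kdm3aHA, mDKO with mCherry and control with mCherry. The 6 mDKO libraries of Tfap2c, of Klf4 and of Nr5a2 all sit below both control libraries, with or without Kdm3a. The share of all genes with this order was not computed, and Nr5a2 was not called.

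Supplying Kdm3a moved none of the 6 tested factors past the threshold. With Kdm3aWT the differences from mDKO mCherry embryos ran from -0.35 (Nr5a2) to 0.21 (Pou5f1), the lowest adjusted p was 0.213 and none had an unadjusted p under 0.05, where 11.8% of all genes were called, 10.8% lower and 0.949% higher. With Kdm3aHA they ran from -0.28 (Nr5a2) to 0.32 (Tfap2c), and 10.8% of all genes were called, 9.29% lower and 1.54% higher. Of these Kdm3aHA differences, 1 had an unadjusted p under 0.05 in limma, that of Pou5f1 (0.30 ± 0.12, adjusted p = 0.173). Tfap2c had 3.02 and 3.05 TPM with Kdm3aWT, 3.45 and 5.42 TPM with Kdm3aHA and 3.56 and 3.05 TPM with mCherry in mDKO embryos. The Kdm3aWT difference was -0.09 ± 0.21 (adjusted p = 0.820) and turned to 0.066 with size-factor scaling. The Kdm3aHA difference was 0.32 ± 0.21 (adjusted p = 0.396). Klf4 had 0.788 and 1.24 TPM with Kdm3aWT, 1.61 and 1.34 TPM with Kdm3aHA and 1.29 and 1.52 TPM with mCherry in mDKO embryos. All 6 mDKO libraries, whatever was injected, lay below both control mCherry libraries for Tfap2c, Klf4 and also Nr5a2. For the mCherry comparison alone 36.5% of all tested genes had this order, and the share over all 6 mDKO libraries was not computed.

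The constructs were also compared with each other. Kdm3aWT minus Kdm3aHA was -0.41 ± 0.21 for Tfap2c (adjusted p = 0.296) and -0.31 ± 0.19 for Klf4 (adjusted p = 0.364), and 0 of 6 factors were called, where 3.29% of all genes were called, 1.32% higher and 1.97% lower. With limma 0 factors had an unadjusted p under 0.05. Size-factor scaling moved the median of all genes by 0.18 in the Kdm3aWT comparison with mCherry and by 0.12 between the constructs. The share of all calls that were higher was 29.6% with Kdm3aWT, 26.4% with Kdm3aHA and 57.3% between the constructs under size factors, against 8.07%, 14.2% and 40.2% on the TPM scale.

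In the same libraries some related genes were called. Among all genes 0.949% were called higher and 10.8% lower with Kdm3aWT, and 1.54% higher and 9.29% lower with Kdm3aHA. Dppa5a rose with Kdm3aWT (0.58 ± 0.11, adjusted p = 0.0102) and with Kdm3aHA (0.67 ± 0.11, adjusted p = 0.00505), and Dppa3, which encodes a maternal factor that protects DNA methylation, rose with Kdm3aWT (0.35 ± 0.06) and Kdm3aHA (0.27 ± 0.06). Of 15 network genes tested, 2 rose and none fell with Kdm3aWT, and 2 rose and 2 fell with Kdm3aHA. The pair that fell was Fbxo15 (-0.90 ± 0.15) and Gbx2 (-0.56 ± 0.14). Of the 9 early 2-cell markers 6 rose and 1 fell with Kdm3aWT, and 1 rose and 1 fell with Kdm3aHA.

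Wild-type 4C embryos had a table of their own, whose levels were not tested against the others. Klf5 was the factor with the largest differences. It had 95.8 and 105.7 TPM with Kdm3aWT, 110.3 and 95.4 TPM with Kdm3aHA and 57.5 and 21.1 TPM with mCherry. The differences from mCherry were 1.5 ± 0.49 with Kdm3aWT (adjusted p = 0.574) and 1.53 ± 0.49 with Kdm3aHA (adjusted p = 0.843), and both treated groups lay above both mCherry libraries. The Kdm3aWT difference was 0.80 without mCherry replicate 2, and it was 2.20 and called without replicate 1 (adjusted p = 0.0327). Of 9 factors tested none was called in any of the 3 comparisons, where 0% of all genes were called. At an unadjusted p under 0.05 limma gave 1 factor for Kdm3aWT, 1 for Kdm3aHA and 0 between the constructs, and 776, 264 and 227 of 9669 genes.

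**Figure D4:**
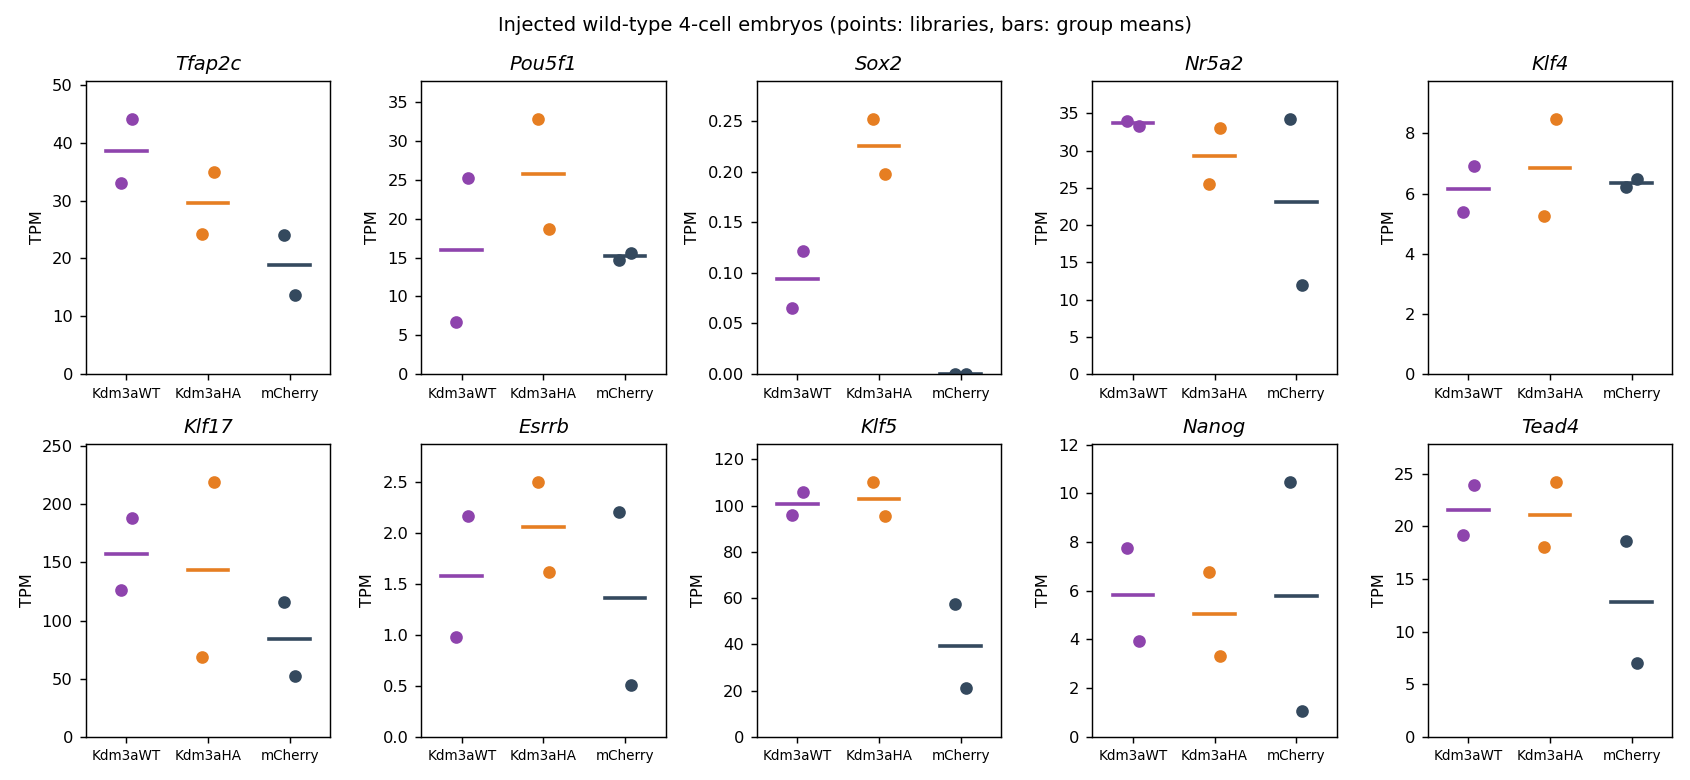
TPM of the 10 factors in injected wild-type 4-cell embryos, with points for libraries and short lines for the means of 2, in the order Kdm3aWT, Kdm3aHA and mCherry. The Klf5 libraries with Kdm3a sit at 95.4 to 110.3 TPM, above the mCherry libraries at 57.5 and 21.1 TPM, and several factors are lower in mCherry replicate 2 than in replicate 1.

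The mCherry replicates differed at 4C. Replicate 2 had 7649 genes at a TPM of at least 1, the fewest of any library, and replicate 1 had 8879. Their correlation, r = 0.968, was the lowest of any group. Nr5a2 had 34.0 and 33.3 TPM with Kdm3aWT, 25.5 and 33.1 TPM with Kdm3aHA, and 34.2 and 12.0 TPM with mCherry. Tead4 had 19.2 and 23.9 TPM with Kdm3aWT, 18.0 and 24.2 TPM with Kdm3aHA, and 18.6 and 6.98 TPM with mCherry. Nanog had 7.76 and 3.93 TPM with Kdm3aWT, 6.77 and 3.31 TPM with Kdm3aHA, and 10.5 and 1.07 TPM with mCherry. In each the second mCherry library was the lowest of all 6. Tfap2c had 33.1 and 44.1 TPM with Kdm3aWT, 24.2 and 34.9 TPM with Kdm3aHA, and 24.1 and 13.7 TPM with mCherry. The Kdm3aWT differences over the 9 factors ran from -0.19 (Pou5f1) to 1.5 (Klf5), the Kdm3aHA differences from 0.07 (Klf4) to 1.53 (Klf5), and the differences between constructs from -0.86 (Pou5f1) to 0.38 (Tfap2c). The median of all genes was 0.44 with Kdm3aWT and 0.35 with Kdm3aHA, and size-factor scaling moved it by -0.41 and -0.33.

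Of the tested factors, Klf5, Tfap2c, Tead4 and Klf17 had both Kdm3aWT libraries above both mCherry libraries, as had 39.6% of all tested genes. Klf5, Tfap2c and Pou5f1 had both Kdm3aHA libraries above both mCherry libraries, as had 21.7% of all tested genes. Sox2 had 0.0651 and 0.122 TPM with Kdm3aWT, 0.252 and 0.198 TPM with Kdm3aHA, and was listed at 0 in both mCherry libraries, too low to test. Pou5f1 had 6.68 and 25.3 TPM with Kdm3aWT, 32.8 and 18.7 TPM with Kdm3aHA, and 14.7 and 15.6 TPM with mCherry. Klf17 had 126 and 189 TPM with Kdm3aWT, 68.4 and 219 TPM with Kdm3aHA, and 116 and 52.0 TPM with mCherry. Neither Pou5f1 nor Klf17 was called. Klf4 ran from 5.24 to 8.47 TPM and Esrrb from 0.509 to 2.50 TPM over the 6 libraries.

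Among the 7864 genes with a mean of at least 5 TPM over the 12 uninjected libraries, those with the most similar course by Pearson r of log2(TPM + 1) were named for each factor. They were Rpl34 for Nr5a2 (r = 0.980), Ctdspl2 for Tfap2c (0.977), Snai1 for Klf4 (0.981), Apom for Klf5 (0.997), Pfn2 for Klf17 (0.992) and Efcab14 for Pou5f1 (0.993). For the others they were Trp53i13 for Sox2 (0.928), Snora21 for Nanog (0.989), Slc30a6 for Tead4 (0.989) and Mafg for Esrrb (0.981). Between the factors themselves, Nr5a2 and Klf4 (0.920), Klf5 and Tead4 (0.910) and Nr5a2 and Tead4 (0.901) were the most alike, and Pou5f1 and Nanog the most opposed (-0.892). These are descriptions over 12 libraries that share stage, kit and genotype.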

How the data were processed

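Per the labels, polyA RNA of pooled oocytes or embryos was sequenced with paired-end reads. The authors deposited TPM values, 1 column per library in 3 tables of 24412 symbols, with totals of 999986 to 1000000. Tools listed, per the submitters' processing notes, are RSEM 1.3.1, SAMtools 1.9, STAR 2.7.10b and Bowtie2 2.3.4.1, with mm10 as build. No annotation or strand setting is stated. TPM keeps no depth, so no counting interval is given.

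Log2(TPM + 1) values were fitted with limma 3.58.1 (R 4.3.3), a mean-dependent trend and two-sided tests. Genes reaching 1 TPM in 2 or more of a fit's libraries entered, with Benjamini-Hochberg adjustment over all genes tested and calls under 0.05. Fold changes on this scale understate the change of low genes. Uninjected mDKO and control were fitted per stage (4 libraries). Stage and interaction contrasts used all 12 uninjected libraries, and the 8 injected E2C and 6 injected 4C libraries had 1 fit each. With 2 against 2 the smallest exact permutation p is 0.333.

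All 10 factors were followed in every comparison, though some are given there only within a range or a count. Of each related list, called genes with the largest change and a mean of at least 5 TPM are named, at most 2 per direction. This was done for uninjected mDKO against control and for Kdm3a injection at E2C. Related genes were also called in the stage steps, the differences between stages and the mCherry-injected mDKO comparison, and are not named. The factors and lists were chosen with earlier results of these data known. Coordinates, promoters and names come from RefSeq GRCm38.p6, which matched 23193 symbols. Near copies were sought with blastn 2.17.0 at 95% identity over 200 bases. The fits were tested on simulated data. Alternatives were a pseudocount of 0.1, no filter on low values, size-factor scaling, the replicate number as a block, other sets of libraries in the fit, and leaving out each library.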

Additional observations from a re-analysis of the deposited data

Results flagged for a closer look

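For 4 factors the mDKO difference was called different between stages, by the interaction contrast in limma over the 12 uninjected libraries with Benjamini-Hochberg adjustment. Tead4 was near 0 TPM in both genotypes at E2C, so its contrast repeats its L2C difference and cannot show a change with stage. Between E2C and L2C the change in the mDKO difference was -1.83 for Esrrb, -1.50 for Tead4, -0.96 for Nr5a2 and 1.17 for Pou5f1, on the log2 scale. Between MII and E2C it was 1.3 for Esrrb, whose mDKO difference was -0.78 at MII, 0.52 at E2C and -1.31 at L2C. The MII and E2C differences were not called (limma adjusted p = 0.0573 and 0.273). The call for the change of 1.3 was lost without 10 of the 12 libraries in turn. It was also lost with a pseudocount of 0.1, without the filter on low values and with the replicate block. In mCherry-injected E2C embryos the Esrrb difference was 0.04 ± 0.21, and the groups overlapped. In single libraries, Esrrb was lower in both mDKO libraries than in both control libraries at MII and L2C, and higher in both at E2C without injection. Among all tested genes 34.4% at MII and 37.6% at L2C were lower in this way. The share that was higher at E2C was not computed. Groups of 2 were too small for a test of single outlying libraries, so the high Sox2 value of 95.3 TPM in mDKO MII replicate 2 stands as a value only.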

How the results depend on the processing

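Of the factors called at MII, L2C and in the mCherry-injected E2C embryos, all kept their direction under every alternative. At MII the number of factors called was 4 with the replicate block, and at E2C it was 1 with size-factor scaling, 2 with the replicate block and 2 in the fit of all 12 uninjected libraries. For the mDKO difference between E2C and MII the count was 0 with a pseudocount of 0.1, 0 without the filter on low values and 0 with the replicate block. For that between L2C and E2C it was 2 with a pseudocount of 0.1. The cause was not tested. Leaving out 1 library gave 1 to 2 factors called at MII, 0 to 2 at E2C, 8 to 8 at L2C, 8 to 9 from MII to E2C and 7 to 8 from E2C to L2C in controls, 0 to 1 and 2 to 5 for the differences between stages, 1 to 2 in mCherry-injected embryos, and 0 to 1 for Kdm3aWT at 4C.

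Replicate differences of the 2 genotypes correlated at 0.36 at MII, -0.02 at E2C and 0.05 at L2C. In the injected groups they correlated between -0.10 and 0.18. The replicates thus shared part of their difference at MII and little at E2C and L2C, and whether they were paired was not tested. At MII the block raised the calls over all genes from 458 to 2143. With the replicate block the MII calls were Tfap2c, Klf4, Pou5f1 and Esrrb, and those at E2C Tfap2c and Klf5.

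Signs turned for factors that were not called as reported. With size-factor scaling Pou5f1 in mCherry-injected embryos came to -0.00043 and Tfap2c with Kdm3aWT to 0.066. Leaving out 1 library gave ranges of -0.57 to 2.7 for Sox2 at MII and -0.0056 to 0.52 at L2C. At E2C they were -0.35 to 0.0033 for Pou5f1, -0.64 to 0.12 for Nanog and -0.16 to 0.21 for Klf17. From E2C to L2C in controls Nanog ran from -0.25 to 0.51. In mCherry-injected embryos Pou5f1 ran from -0.14 to 0.19, Klf17 from -0.066 to 0.041 and Esrrb from -0.13 to 0.21. Klf4 with Kdm3aHA ran from -0.038 to 0.12, and Klf5 between constructs at 4C from -0.13 to 0.076.

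Over all genes, calls ranged with the other alternatives from 145 to 2143 at MII (458 as reported), from 409 to 2560 at E2C (1600) and from 10 to 351 between constructs (361), and leaving out 1 library gave 42 to 300, 282 to 3214 and 8 to 1493. It gave 216 to 839 for the E2C to MII difference (555), 3117 to 5493 with mCherry (5141), 91 to 1551 with Kdm3aWT (1288), 216 to 1469 with Kdm3aHA (1187), and 0 to 491, 0 to 21 and 0 to 23 at 4C (0). With size-factor scaling 28.5% of 361 MII calls were higher, against 19.9% of 458. With TPM the depth behind low values such as Tead4 and Nanog at E2C is unknown.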
